A study of Mus musculus with 6 samples.

Results

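Dock6, Dock8, Dock9, Dock10 and Dock11 are described here in adult mouse tibialis anterior, the shin muscle that lifts the foot, as the rows of the deposited gene table whose Ensembl identifiers carry these symbols in GENCODE M21. All 5 genes were found among the 54393 identifiers of the table, and all 5 passed the filter on low values, which asks for a 6-sample mean of 10 or more normalized counts. The study set 3 wild-type (WT) muscles, whose sample titles name the C57 background, against 3 muscles from Dock3 knockout mice (Dock3 KO), measured by ribosome-depleted, strand-marking paired-end RNA sequencing. The comparison asks what changes in muscle RNA without Dock3. The labels give every animal as adult and state neither the knockout allele nor sex, nor whether muscles of a group came from separate animals, so p-values measure the spread between these muscles. Values of single muscles are given in the order of WT replicates 1, 3 and 4 and of Dock3 KO replicates 1, 2 and 3.

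DOCK proteins are guanine nucleotide exchange factors: they load small GTPases with GTP and so switch on the signals that shape the actin cytoskeleton. They do this with a catalytic DHR2 domain, and a DHR1 domain binds membrane phosphoinositides. Dock3 and the other DOCK-A and DOCK-B proteins act on Rac and work with ELMO adaptors. DOCK-C (Dock6 and Dock8 here) and DOCK-D (Dock9, Dock10 and Dock11, also called zizimins) do without ELMO and act on Cdc42, in some cases also on Rac. Dock8 is best known from leukocytes, whose migration needs it, and Dock6 from vascular and limb development.

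None of the 5 genes passed the test between genotypes. Dock9, an exchange factor for Cdc42, had the highest level per length of the 10 DOCK genes compared and was the member whose genotypes did not overlap, with a Dock3 KO level of 0.72 times WT. Dock6 had a similar estimate, 0.70 times WT, with genotypes that overlapped. Dock8, Dock10 and Dock11 had estimates of 0.98, 0.90 and 1.15 times WT. Among the GTPases, effectors, inhibitors and related exchange factors around them, Dock3 itself was the gene that passed.

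Dock9 is shown first as sequence, because the gene-level value sums transcripts from several starts and the table cannot tell them apart. Dock9 (ENSMUSG00000025558) lies on the minus strand of chr14:121542046-121797837 in GENCODE M21 (GRCm38), with 10 annotated transcripts. RefSeq (GRCm38.p6) gives 3 starts for it, each shown from 250 bases before to 50 bases after the start, 5′ to 3′ on the minus strand, with GC boxes (GGGCGG or its reverse complement CCGCCC) in capitals.

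Dock9 start at chr14:121797685-121797984: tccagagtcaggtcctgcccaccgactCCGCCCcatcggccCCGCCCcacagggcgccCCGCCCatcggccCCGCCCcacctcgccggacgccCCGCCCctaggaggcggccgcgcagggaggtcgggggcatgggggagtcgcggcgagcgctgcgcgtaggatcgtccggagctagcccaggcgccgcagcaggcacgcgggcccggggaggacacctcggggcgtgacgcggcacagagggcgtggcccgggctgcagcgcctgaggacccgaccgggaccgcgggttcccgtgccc
Dock9 start at chr14:121738880-121739179: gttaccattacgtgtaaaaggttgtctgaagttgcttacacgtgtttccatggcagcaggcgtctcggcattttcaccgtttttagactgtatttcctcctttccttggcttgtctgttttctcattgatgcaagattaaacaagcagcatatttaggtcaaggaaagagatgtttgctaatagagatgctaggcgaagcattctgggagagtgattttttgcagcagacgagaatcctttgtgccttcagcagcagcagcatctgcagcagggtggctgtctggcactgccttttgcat
Dock9 start at chr14:121698368-121698667: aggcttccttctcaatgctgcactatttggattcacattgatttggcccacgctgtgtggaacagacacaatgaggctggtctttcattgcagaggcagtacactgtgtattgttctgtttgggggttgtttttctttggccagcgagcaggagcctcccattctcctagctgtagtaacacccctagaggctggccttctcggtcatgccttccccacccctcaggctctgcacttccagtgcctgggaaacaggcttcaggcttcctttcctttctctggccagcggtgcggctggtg

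The start farthest upstream holds 41 CpG dinucleotides and 5 GC boxes and contains the 5′ end of 1 annotated transcript. The middle window holds 7 CpG dinucleotides and no GC box and contains the 5′ end of none of the annotated transcripts, and the window farthest downstream holds 5 and no GC box and contains the 5′ ends of 2. A GC box on either strand was present in 35.7% of 32851 RefSeq promoter windows of this length, with a median of 7 CpG dinucleotides. All 5 genes had an entry. The windows of Dock6, Dock8 and Dock11 held 27, 52 and 25 CpG dinucleotides and 5, 2 and 3 GC boxes. Dock10 has 2 windows, the upstream one with 32 CpG dinucleotides and 2 GC boxes and the other with 5 and none. Each gene thus has a CpG-rich start, and Dock9 and Dock10 have further starts that are not.

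The normalized counts of a sample summed to 23520223 to 33393950. These sums are not read counts, and the read depth behind a value is not known from the table. Dock3 stood at 169, 161 and 118 across the WT muscles and 22.4, 1.78 and 1.54 across the Dock3 KO muscles. A pair of abundant genes, Gm42418 and Lars2, took 3.00% to 3.51% of the sum in WT and 3.64% in Dock3 KO replicate 3. In Dock3 KO replicates 1 and 2 their share was 17.9% and 20.3%. Gm42418 shares exonic sequence with CT010467.1, an annotated ribosomal RNA gene on the opposite strand. What this share reflects was not tested. Transcripts of fast muscle fibres dominated every sample, with Acta1 between 273298 and 375619, and the groups overlapped in the summed level of 12 myofibre markers (2355650 to 2753950 in WT and 2499730 to 2798410 in Dock3 KO). Each group is bulk tissue, so fewer cells of a type and less RNA per cell cannot be told apart.

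Dock9 (zizimin 1) had normalized counts of 1029, 1355 and 1120 across the WT muscles and of 823, 779 and 906 across the Dock3 KO muscles. Every Dock3 KO muscle lay below every WT muscle, and the gap between the groups, from 906 to 1029, was smaller than the range within WT. The WT mean was 1168 ± 168 and the Dock3 KO mean 836 ± 64.6 (SD, n = 3 each). The log2 difference, Dock3 KO minus WT on the log2(normalized count + 1) scale, was -0.47 with a standard error of 0.144 and a 95% interval from -0.80 to -0.15. Its p was 0.00826 before and 0.235 after Benjamini-Hochberg adjustment over 16031 genes (limma), so it did not pass the threshold of 0.05. By exact permutation (two-sided) p was 0.1, and 3 against 3 samples allow no smaller value.

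Read against all genes tested, groups that do not overlap, as for Dock9, were common. The groups did not overlap for 16.2% of the 16031 genes, and for 8.65% in the direction of a lower Dock3 KO level. An unadjusted p under 0.05 was given to 10.5% of the genes and an adjusted p under 0.05 to 1.03% (limma with Benjamini-Hochberg adjustment). The share of genes with an unadjusted p as small as that of Dock9 was not counted. Of the 5 members, 1 did not overlap, 1 had an unadjusted p under 0.05 and 0 had an adjusted p under 0.05.

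The Dock9 and Dock6 estimates were also computed without Dock3 KO replicates 1 and 2, the libraries with the large Gm42418 and Lars2 share. With both left out, which leaves 1 Dock3 KO muscle, the log2 difference was -0.36 for Dock9 and -0.055 for Dock6 (adjusted p 0.718 and 0.977, limma). With log2 Gm42418 as a covariate it was -0.32 for Dock9 and 0.043 for Dock6 (adjusted p 0.850 and 0.991, limma). Their standard errors were 0.218 and 0.330 with the covariate, against 0.144 and 0.259 in the main setting. No WT library had the large share, and of the Dock3 KO libraries only replicate 3 was without it. With 1 such muscle, share and genotype cannot be told apart reliably. The part of the share in these estimates was not tested.

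Dock6, a DOCK-C protein that acts on Rac and Cdc42, was the member with the largest spread. Dock6 (ENSMUSG00000032198, minus strand of chr9:21799860-21852635) had normalized counts of 372, 549 and 625 across the WT muscles and of 358, 254 and 485 across the Dock3 KO muscles. WT replicate 1 lay within the Dock3 KO range, and Dock3 KO replicate 3 lay within the WT range. The means were 516 ± 130 and 366 ± 115 (SD, n = 3 each). The log2 difference was -0.51 and its 95% interval ran from -1.09 to 0.07 (limma adjusted p 0.545).

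Within a genotype, the SD of log2 Dock6 values was 0.43, and 6.43% of the genes tested with a mean within 1.5 times that of Dock6 had a larger one. The median of those genes was 0.20. For Dock8, Dock9, Dock10 and Dock11 the corresponding SDs were 0.25, 0.16, 0.26 and 0.30. Dock6 was lowest in the 2 Dock3 KO libraries with the large Gm42418 and Lars2 share, at 358 and 254. WT replicate 1, without a large share, was close to the first of them, at 372. A link between Dock6 and this share was not tested. Dock6 and Dock3 are both on chromosome 9, with 85040189 bases between them. Angptl8 lies on the opposite strand within Dock6, shares no exon with it and had a mean of 0.58 normalized counts.

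**Figure D1:**
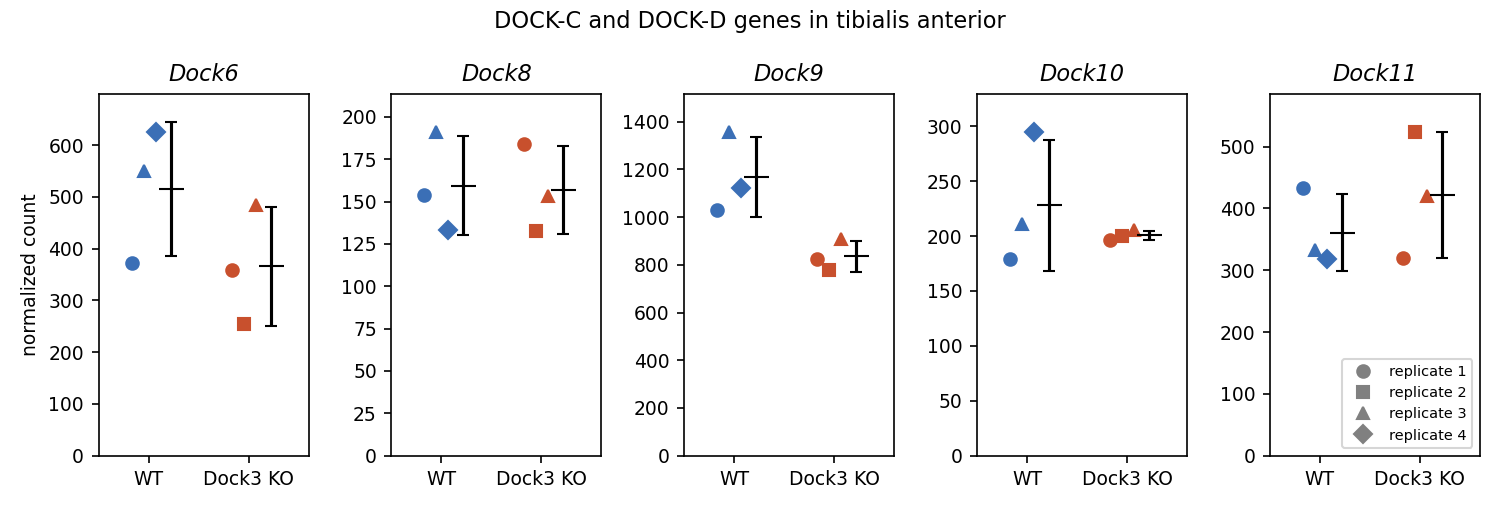
Normalized counts (y axis, from 0, a separate scale per gene) of Dock6, Dock8, Dock9, Dock10 and Dock11 in WT and Dock3 KO tibialis anterior; each point is 1 muscle, its shape gives the replicate number, and the black bar is the mean ± SD (n = 3). The Dock9 points of Dock3 KO, 779 to 906, all lie below those of WT, 1029 to 1355, and the groups overlap for the other 4 genes.

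Dock8, the DOCK-C protein known for its role in leukocyte migration, differed least. Dock8 (ENSMUSG00000052085, plus strand of chr19:24999534-25202432) had normalized counts of 154, 191 and 133 across the WT muscles and of 184, 132 and 153 across the Dock3 KO muscles. The groups covered nearly the same range. The log2 difference was -0.022 with a 95% interval from -0.50 to 0.46, so that Dock3 KO levels between 0.71 and 1.38 times WT lie inside it (limma adjusted p 0.988).

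Dock10 (zizimin 3), which acts on Cdc42 and in some settings on Rac, is encoded on the minus strand of chr1:80501073-80758527 (ENSMUSG00000038608). It had normalized counts of 179, 211 and 295 across the WT muscles and of 197, 200 and 205 across the Dock3 KO muscles. The 3 Dock3 KO muscles lay close together inside the WT range, and WT replicate 4 was the highest. The coefficient of variation was 26.1% in WT and 2.16% in Dock3 KO. The log2 difference was -0.15 with a 95% interval from -0.62 to 0.31 (limma adjusted p 0.874), and without WT replicate 4 it was 0.045.

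Dock11 (zizimin 2), an exchange factor for Cdc42, is the X-linked member (ENSMUSG00000031093, plus strand of chrX:35888832-36076562). It had normalized counts of 432, 333 and 318 across the WT muscles and of 320, 523 and 421 across the Dock3 KO muscles. The highest value was that of Dock3 KO replicate 2, the muscle with the lowest Dock6 and Dock9, and the groups overlapped. The log2 difference was 0.21 with a 95% interval from -0.26 to 0.67 (limma adjusted p 0.811), and without Dock3 KO replicate 2 it was 0.036. The Y-linked gene Ddx3y stood between 1614 and 2565 in all 6 samples, and Xist, the transcript of the inactive X chromosome, between 1.29 and 16.2, so these markers of sex were alike in both groups.

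**Figure D2:**
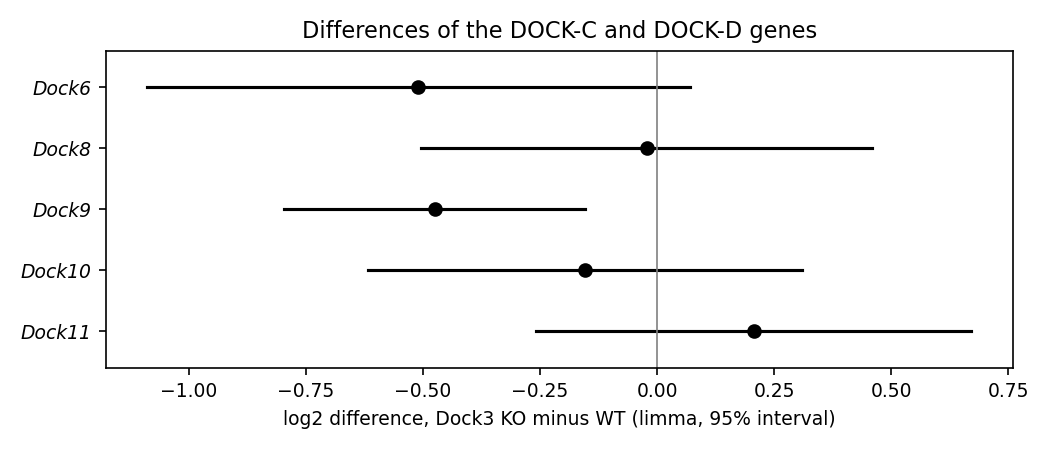
Log2 difference between Dock3 KO and WT (x axis, Dock3 KO minus WT on the log2(normalized count + 1) scale) of the 5 genes; points are limma estimates and lines their 95% intervals. The interval of Dock9, from -0.80 to -0.15, excludes 0 before adjustment over all genes, and those of the other 4 genes include it.

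Levels of different genes were compared per length, as normalized counts per kb of the longest annotated transcript. In WT the level per kb was 144 ± 20.8 for Dock9, 74.9 ± 18.8 for Dock6, 54.2 ± 9.34 for Dock11, 31.7 ± 8.29 for Dock10 and 20.4 ± 3.75 for Dock8 (SD, n = 3 each). Dock9 lay above the other 9 DOCK genes compared in all 3 WT muscles. Dock6 overlapped in WT with the next in order, Dock4, which lay above Dock1 without overlap, and Dock1 overlapped with Dock11. Dock11 lay above Dock10 without overlap, and from Dock10 down through Dock2, Dock8, Dock3 and Dock5 each gene overlapped with the next. In Dock3 KO the level per kb was 103 ± 7.97 for Dock9, 63.2 ± 15.3 for Dock11, 53.2 ± 16.8 for Dock6, 27.9 ± 0.601 for Dock10 and 20.1 ± 3.33 for Dock8 (SD, n = 3 each).

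With the union of all annotated exons as the length in place of the longest transcript, Dock9 and Dock6 kept places 1 and 2 in WT. Dock4 moved from place 3 to place 5, below Dock1 and Dock11, so its place above Dock1 depends on the length used. Dock10 and Dock8 moved from places 6 and 8 to places 8 and 6. As a share of the summed level per kb of the 5 genes, Dock9 made up 43.7%, 47.7% and 41.3% across the WT muscles and 40.2%, 37.5% and 38.1% across the Dock3 KO muscles. The share of Dock11 was 22.3%, 14.2% and 14.2% in WT and 19.0%, 30.6% and 21.5% in Dock3 KO. Dock9 was thus the largest component in every muscle, and the share of Dock11 was highest in Dock3 KO replicate 2.

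**Figure D3:**
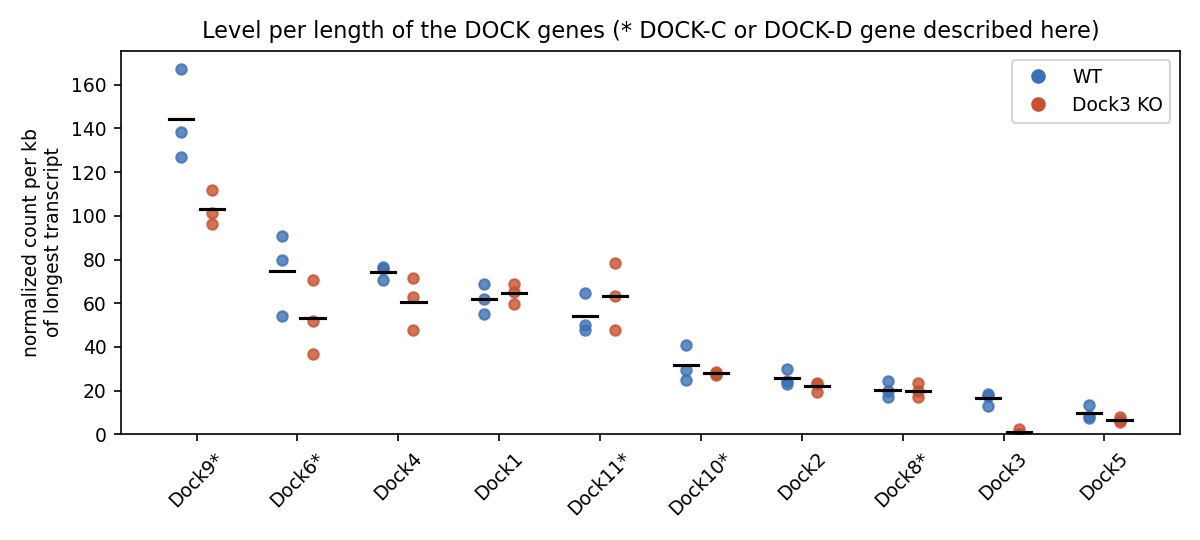
Normalized count per kb of the longest transcript (y axis, from 0) for 10 DOCK genes in order of the WT mean, with the 5 DOCK-C and DOCK-D genes described here marked by an asterisk; points are single muscles (3 per genotype) and black bars are means. Dock9 is highest in WT, at a mean of 144, and Dock3 drops to near 0 in Dock3 KO.

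The DOCK-A, DOCK-B and ELMO genes served for comparison. Among these 8 genes, 1 passed the test, Dock3, at a log2 difference of -4.76 (limma adjusted p 0.0140). The Dock3 call was lost in 6 of 19 alternatives, among them those without WT replicate 1, 3 or 4 or without Dock3 KO replicate 2 (limma adjusted p 0.0651, 0.0771, 0.0591 and 0.0708), while its log2 difference stayed at -3.27 or below in all 19. The median log2 difference was -0.15 over the 5 members, -0.22 over these 8 genes and -0.0073 over all genes tested. Dock4, the one with the highest mean, had normalized counts of 647, 657 and 604 across the WT muscles and of 409, 539 and 610 across the Dock3 KO muscles, and its groups overlapped (limma adjusted p 0.587).

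The GTPases that these proteins switch on were measured next. Of 9 listed GTPases 8 were tested and 0 passed, with 1 at an unadjusted p under 0.05 (limma), and Rhov fell under the filter. Cdc42, the main substrate of DOCK-D, had normalized counts of 3429, 3193 and 4041 across the WT muscles and of 3475, 3641 and 3420 across the Dock3 KO muscles, with a log2 difference of -0.010 and a 95% interval from -0.29 to 0.27. Its Dock3 KO values lay inside the WT range. Rhoj, a Cdc42-like GTPase of blood vessels, was listed at 410, 476 and 516 across the WT muscles and 792, 606 and 652 across the Dock3 KO muscles, above WT in all 3 muscles (log2 difference 0.55, limma adjusted p 0.209). The groups did not overlap for Rac1 (log2 difference 0.15) and Rac3 (-0.82) either, with adjusted p-values of 0.748 and 0.578 (limma).

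Of 33 effectors of Cdc42 and Rac, 0 passed. An unadjusted p under 0.05 was given to 4 (limma), beside 10.5% of all genes tested, and 4 did not overlap between genotypes, beside 16.2%. Wipf1, which encodes WIP, a partner of the actin regulator WASP and of Dock8, was listed at 365, 318 and 348 normalized counts across the WT muscles and 515, 447 and 531 across the Dock3 KO muscles (log2 difference 0.53, limma adjusted p 0.185). Pak1, a kinase activated by Rac and Cdc42, was listed at 281, 240 and 325 across the WT muscles and 493, 392 and 379 across the Dock3 KO muscles (log2 difference 0.58, limma adjusted p 0.244). Prkcz, an atypical protein kinase C of the Cdc42 polarity complex, was listed at 206, 168 and 141 across the WT muscles and 101, 76.6 and 106 across the Dock3 KO muscles (log2 difference -0.85, limma adjusted p 0.171). The Dock3 KO muscles thus lay above WT for Wipf1 and Pak1 and below it for Prkcz. Pard6a, of the same complex, did not overlap at a log2 difference of -0.31, and Trip10, the effector with the highest mean, had means of 1751 ± 113 and 1486 ± 202 (SD, n = 3 each).

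Of 22 genes listed as inhibitors (GDIs, GTPase-activating proteins and LRCH proteins, the last because Lrch1 binds Dock8), 0 passed. An unadjusted p under 0.05 was given to 4 (limma), beside 10.5% of all genes tested, and 3 did not overlap, beside 16.2%. Lrch3 was listed at 677, 738 and 826 normalized counts across the WT muscles and 486, 577 and 514 across the Dock3 KO muscles (log2 difference -0.51, limma adjusted p 0.195). Whether Lrch3 inhibits any of these proteins was not tested. Arhgdig, a GDI that holds small GTPases inactive, was near the filter, at 23.9, 16.5 and 23.2 in WT and 2.89, 7.72 and 0.778 in Dock3 KO (limma adjusted p 0.205). Chn2, a GTPase-activating protein for Rac, had means of 52.9 ± 26.0 and 19.9 ± 4.24 (SD, n = 3 each, limma adjusted p 0.297). All 3 lay below WT in every Dock3 KO muscle, and each shares exonic sequence with a gene on the opposite strand, Iqcg for Lrch3 and Rgs11 for Arhgdig, with the use of strand in counting not stated. Arhgdia, the inhibitor with the highest mean, had means of 1426 ± 143 and 1470 ± 88.7 (SD, n = 3 each).

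Of 22 other exchange factors for Cdc42, 21 were tested and 0 passed, with 1 at an unadjusted p under 0.05 (limma). This was Itsn1 (intersectin 1), which had the highest mean of the list and was listed at 962, 1246 and 1079 normalized counts across the WT muscles and 1714, 1427 and 1530 across the Dock3 KO muscles. Every Dock3 KO muscle lay above WT (log2 difference 0.51, limma adjusted p 0.183). Over all 92 tested genes of these lists, the other DOCK and ELMO genes included, 12 did not overlap, 11 had an unadjusted p under 0.05, and 1 passed. Of all genes tested, 16.2% did not overlap, 10.5% had an unadjusted p under 0.05 and 1.03% passed (limma).

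**Figure D4:**
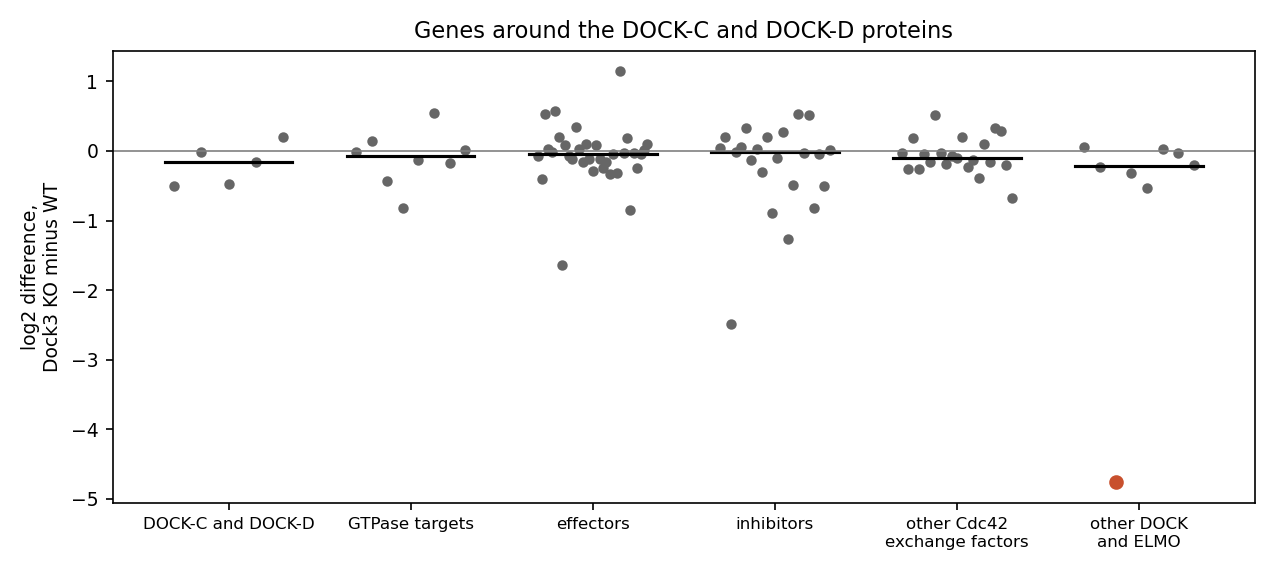
Log2 difference between Dock3 KO and WT (y axis, Dock3 KO minus WT on the log2(normalized count + 1) scale) for the tested genes of 6 lists (x axis); each point is a gene, the black bar is the median of its list, and orange marks an adjusted p under 0.05 (limma). The orange point is Dock3, at -4.76, and all 5 DOCK-C and DOCK-D genes lie between -0.51 and 0.21.

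Markers of leukocytes and of endothelium, in which Dock8 and Dock6 are known to act, were measured beside these values. Of 19 leukocyte markers 14 were tested and 0 passed (limma, 0 at an unadjusted p under 0.05), 1 of the 14 had a log2 difference above 0, and their median was -0.25. The summed level of the 19 was 3037 to 3102 normalized counts in WT and 2094 to 2856 in Dock3 KO, lowest in Dock3 KO replicate 2. These sums did not overlap between the groups, and of the 14 tested markers 2 did not, C1qa and Fcer1g, both below WT in every Dock3 KO muscle, beside 16.2% of all genes tested. None was at 0 in all samples, and 5, the lymphocyte genes Cd3e, Cd3g, Cd4, Cd8a and Lck, fell under the filter. The marker with the highest mean was Csf1r, the receptor of macrophage growth factor, at 1214 ± 233 and 941 ± 222 (SD, n = 3 each).

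Of 12 endothelial markers 12 were tested and 0 passed (limma, 0 at an unadjusted p under 0.05), with a median log2 difference of -0.043. Their summed level was 7023 to 10032 normalized counts in WT and 7076 to 8382 in Dock3 KO, so the groups overlapped, as did those of each marker. None was at 0. The one with the highest mean, Flt1, a receptor of vascular growth factor, had means of 1564 ± 572 and 1326 ± 238 (SD, n = 3 each). Of 6 fibroblast markers 2 passed, against 1.03% of all genes tested, and 4 had a log2 difference above 0. The 2 were the collagen genes Col1a1 (1.38) and Col3a1 (0.87), while Dcn, which had the highest mean, and Lum stood at -0.28 and -0.48. The summed level of the 6 was 28508 to 30417 normalized counts in WT and 31601 to 38067 in Dock3 KO, without overlap. The smooth muscle genes Acta2, Myh11, Tagln and Cnn1 were highest in WT replicate 3, the muscle with the highest Dock9, while Rgs5 and Pdgfrb were not. Acta2 was at 2371 there, and at 487 and 564 in WT replicates 1 and 4. Without WT replicate 3 the Dock9 log2 difference was -0.36. The part of these cell types in the values of the 5 genes was not tested.

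The genes whose values followed each member most closely over the 6 samples were taken from 11045 protein-coding genes with a mean of at least 50, by Pearson's r of log2 values. They are given as a description, since the highest of so many coefficients is large by construction. For Dock9 these were Sdhaf2 (r = 0.999), Slc25a1 (r = 0.994) and Ecm1 (r = 0.99), and Slc25a1, the mitochondrial citrate carrier, was listed at 102, 170 and 127 normalized counts across the WT muscles and 63.8, 51.9 and 77.3 across the Dock3 KO muscles. For Dock6 they were Dact2 (r = 0.992), Nudcd2 (r = 0.991) and Tet1 (r = 0.99). For Dock11 they included Etnk1 (r = 0.994) and Ep300 (r = 0.989). For Dock10 they were Wdr70 (r = 0.993), Yipf5 (r = 0.985) and Herc6 (r = 0.979), and for Dock8 they included Mettl14 (r = 0.972) and Crispld2 (r = 0.959). None of these 13 genes passed the test between genotypes, with adjusted p-values from 0.152 for Slc25a1 to 0.997 for Mettl14 (limma).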

How the data were processed

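The authors deposited 1 table of normalized counts, read here as a signal per gene. The submitters' processing notes name FastQC, Trim Galore 0.4.5, Salmon 0.12.0, DESeq2 1.22.1, R 3.5.3 and the builds mm10 and GRCm38, without their roles. The use of strand in counting is not given in the sources used here. Only 16.4% to 24.5% of a sample's low values were whole multiples (within 0.01 of a whole multiple) of its most frequent low value, so tests on counts were not run and no counting interval is given. All 6 columns were used, and all 54393 identifiers matched GENCODE M21 symbols.

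Genes with a mean of at least 10 were compared as log2(normalized count + 1) between genotypes with limma 3.58.1 (R 4.3.3, eBayes with trend, all 6 samples), with Benjamini-Hochberg adjustment over all 16031 genes and a threshold of 0.05. The script was tested on simulated data. A log2 difference on this scale understates the change of low genes. Near-identical copies (blastn 2.17.0, at least 95% identity over 50% of the shorter transcript) were found for none of the 5 members, and among the genes named in the text for Prkcz (a pseudogene with a mean of 0.655). The members, lists and tests were chosen with earlier results of these data known. Named genes are the members, pathway genes past the threshold, up to 4 genes per pathway list whose groups did not overlap in order of p, the highest of each pathway list, up to 4 markers per list by mean, and the 3 most similar genes per member. Further markers were named after their values were seen. Some genes of the lists and of the similar genes are not reported here. Permutations used scipy 1.17.1 in Python 3.11.15. The alternatives were other pseudocounts, filters, scalings and prior variances, protein-coding genes only, a Gm42418 covariate, a replicate block and left-out samples.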

Additional observations from a re-analysis of the deposited data

How the results depend on the processing

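No member passed the threshold in the main setting or in any of the 19 alternatives, and the adjusted p of Dock9 ranged from 0.134 to 0.850 over them (limma). Dock9 ranged from -0.75 to -0.32. Its groups do not overlap, so leaving out samples cannot turn its sign. Dock6, the member with the estimate farthest from 0, was at -0.51 in the main setting. It was 0.043 with log2 Gm42418 as a covariate, -0.055 without Dock3 KO replicates 1 and 2 and -0.12 with the replicate block. The block leaves WT replicate 4 and Dock3 KO replicate 2 without a partner, so its estimates rest on replicates 1 and 3. Signs also changed for members nearer 0: Dock8 was 0.025 with quantile normalization, 0.12 without WT replicate 3 and 0.091 when Dock3 KO replicate 2 was left out, and Dock10 was 0.045 without WT replicate 4. The cause was not tested. Leaving out each sample gave -0.74 to -0.27 for Dock6, -0.14 to 0.12 for Dock8, -0.56 to -0.36 for Dock9, -0.31 to 0.045 for Dock10, 0.036 to 0.39 for Dock11, -5.81 to -4.21 for Dock3, 100 to 159 genes called against 165 (100 when WT replicate 4 was left out and 102 when Dock3 KO replicate 2 was), and 0 to 1 pathway genes called, the 1 being Dock3.

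Rescaling to the same total moved the median of all genes to -0.28, or -0.11 when Gm42418 and Lars2 were left out of the total, and the share of calls that were higher from 43.0% to 23.2% and 31.9%. The first turned Dock11 to -0.068. Such rescaling shifts all genes nearly alike, so a value relative to the median stays nearly the same by construction. Relative to the median, Dock11 was 0.21 and Dock9 -0.47 in both and in the main setting. A prior variance without trend gave 104 genes and 0 pathway genes, with Dock3 at -4.76 (adjusted p 0.123, limma). The covariate gave 57 genes and 0 pathway genes, with Dock3 at -5.94 (adjusted p 0.0836, limma). Protein-coding genes only gave 104, and leaving out Dock3 KO replicates 1 and 2 together gave 56, with the remaining sample assumed to vary like WT. With the replicate block, which rests on replicates 1 and 3 of each genotype, Dock10 was 0.048 and Dock11 -0.049. For replicates 1 and 3 of both genotypes the labels give no link beyond the number. Their deviations correlated at 0.065 and 0.0066 across genes, which with 3 muscles per group cannot decide whether they share more. The block moved the count of calls from 165 to 127. Depth per sample is unknown, since whole reads were not recovered, so counting error was not set beside the spread between the 3 muscles of a group.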

Other observations

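Among genes chosen after their values were seen, Lrch1, the LRCH protein best known as a partner of Dock8, varied within both genotypes more than any of the 5 members, at 362, 266 and 78.9 normalized counts across the WT muscles and 63.0, 70.5 and 312 across the Dock3 KO muscles. The B-cell gene Cd79a was listed at 28.0 in Dock3 KO replicate 1 and between 1.55 and 10.6 in the other 5 samples. Ms4a1, another B-cell marker of the list, stood at 22.7 and 29.8 in Dock3 KO replicates 1 and 3, and between 10.6 and 14.8 in the other muscles. Dock8 was at 184 in Dock3 KO replicate 1, the highest value of its group and below the 191 of WT replicate 3. In Dock3 KO replicate 3, where Ms4a1 was highest, Dock8 was at 153. Rac2, the Rac protein of blood cells, stood at 72.8, 40.1 and 123 across the WT muscles and 123, 22.05 and 52.5 across the Dock3 KO muscles. No test was made of these values together.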
